A study of Mus musculus with 12 samples.

Results

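The genes described here are 10 heat shock genes of mouse pancreatic tumour cells: Hspa1a, Hspa1b, Hspb1, Dnajb1, Dnaja1, Hsph1, Hsp90aa1, Hspa8, Hspd1 and Hspe1. They were taken by symbol from a table of 24493 genes. All 10 were in it, and all 10 were among the 13662 genes that passed the filter on low values. The series compared RNA of tumour cells of 4 genotype labels, EgfrKO, Klf5KO, Smad4KO and WT, with 3 libraries each and 12 in all. All libraries came from cells named 6649c2, which had been implanted under the skin of C57BL/6 mice, grown as pancreatic tumours and sorted from them. The labels used here state neither the sorting gate, nor the age of the mice, nor how each gene was disrupted. They also leave unsaid if a knockout line is 1 clone, so effects of a clone and of the targeted gene cannot be told apart. No label says that the replicates are separate animals or tumours, and a p-value then covers only the variation among libraries, which may be technical.

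Heat shock proteins are chaperones, which bind unfolded proteins and help them fold, stay soluble or be degraded. Under heat and other protein-damaging stress the transcription factor HSF1 binds heat shock elements, repeats of the letters GAA in alternating orientation, and drives the stress-inducible members. Other members, such as Hspa8, are made at all times as housekeeping chaperones. Tumour cells commonly rely on high chaperone levels, and the inducible members also respond to tissue dissociation and sorting.

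The values are TPM, a share of each library's transcripts corrected for transcript length and scaled to the same total in every library, so levels may be compared between genes. Differences were tested with limma on log2(TPM + 1), and an adjusted p is Benjamini and Hochberg's over all 13662 genes. A gene is said to rise or fall only where that p was under 0.05. Over all genes the median log2 fold change against WT was 0.14 in EgfrKO, 0.31 in Klf5KO and 0.10 in Smad4KO. The same test after median-of-ratios scaling, which removes that shift, is given as the scaled value where it turns the direction or the call of a heat shock gene described below.

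Egfr averaged 4.29 TPM in EgfrKO, 6.93 in Klf5KO, 7.95 in Smad4KO and 13.1 in WT. Its mean was thus lowest in EgfrKO, but below WT in every knockout label. Smad4 averaged 64.0 TPM in EgfrKO, 95.8 in Klf5KO, 30.7 in Smad4KO and 75.5 in WT. Klf5 averaged 93.8 TPM in Klf5KO and 112 in WT, and the groups overlapped (log2 -0.25, adjusted p = 0.041, and 0.18 without WT replicate 3), so gene-level TPM does not check that label and these libraries are called Klf5KO-labelled. The epithelial keratins Krt8, Krt18 and Krt19 together with Epcam, Cdh1 and Cldn4 summed to 7184 to 7678 TPM in EgfrKO, 4576 to 5107 in Klf5KO, 7715 to 8680 in Smad4KO and 5367 to 5819 in WT. Of the defining genes, Epcam averaged 1.30, 0.54, 39.5 and 13.5 TPM in the same order, and Cldn4 was at 0.05 to 0.08 TPM in the knockouts and 1.03 in WT. All 6 macrophage markers were present, summing to 983 to 1067 TPM in EgfrKO, 879 to 1399 in Klf5KO, 147 to 653 in Smad4KO and 597 to 1236 in WT. All 6 fibroblast markers were present too, with sums of 113 to 121, 283 to 597, 45.9 to 72.0 and 49.6 to 130 TPM. T and NK cell markers summed to 6.50 to 9.19, 9.56 to 15.3, 4.34 to 8.13 and 0.98 to 1.47 TPM. The part of these other cells in the heat shock results was not tested, and in such sorted bulk samples fewer cells of a type and less RNA per cell cannot be told apart.

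The stress-inducible Hsp70 genes Hspa1a and Hspa1b and the small heat shock gene Hspb1 fell in all 3 knockout labels. The Hsp40 genes Dnajb1 and Dnaja1 and the Hsp110 gene Hsph1 fell in EgfrKO and Smad4KO. In the Klf5KO-labelled libraries Hsph1 rose instead. Dnajb1 was not past the threshold there in deposited TPM, and fell after scaling (-0.40, adjusted p = 0.0014). Dnaja1 rose there in deposited TPM only, and was -0.14 after scaling (0.12). The Hsp90 gene Hsp90aa1 fell in EgfrKO only, but in all 3 knockout labels after scaling. The constitutive Hsc70 gene Hspa8 and the mitochondrial chaperonin genes Hspd1 and Hspe1 did not pass the threshold in EgfrKO or Smad4KO, although after scaling Hspd1 fell in EgfrKO (-0.18, adjusted p = 0.0066) and Hspa8 in Smad4KO (-0.16, 0.018). In Klf5KO Hspe1 fell. Hspa8 and Hspd1 rose there in deposited TPM only, since after scaling Hspa8 was at 0.06 (0.30) and Hspd1 fell (-0.20, 0.0027).

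In EgfrKO, 7 of the 10 genes fell and none rose, where 12% of all genes tested fell and 31.3% rose. In Klf5KO 4 fell and 4 rose, where 11.1% of all genes fell and 55.2% rose. In Smad4KO 6 fell and none rose, where 17.4% of all genes fell and 32.2% rose. The median log2 fold change of the 10 was -0.55 in EgfrKO, 0.02 in Klf5KO and -0.71 in Smad4KO, beside 0.14, 0.31 and 0.10 for all genes. After scaling 8, 7 and 8 fell and none, 1 and none rose, where 22.1%, 27.3% and 25.2% of all genes fell and 18.2%, 24.9% and 24.8% rose. Over both directions, in deposited TPM, 7, 8 and 6 of the 10 passed the threshold, where 43.3%, 66.3% and 49.6% of all genes did. The TPM of 7, 8 and 6 of the 10 did not overlap between EgfrKO, Klf5KO and Smad4KO and the WT libraries, where 56.0%, 69.0% and 59.1% of all genes did not overlap. The 3 contrasts share the WT libraries and are not independent of each other.

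**Figure D1:**
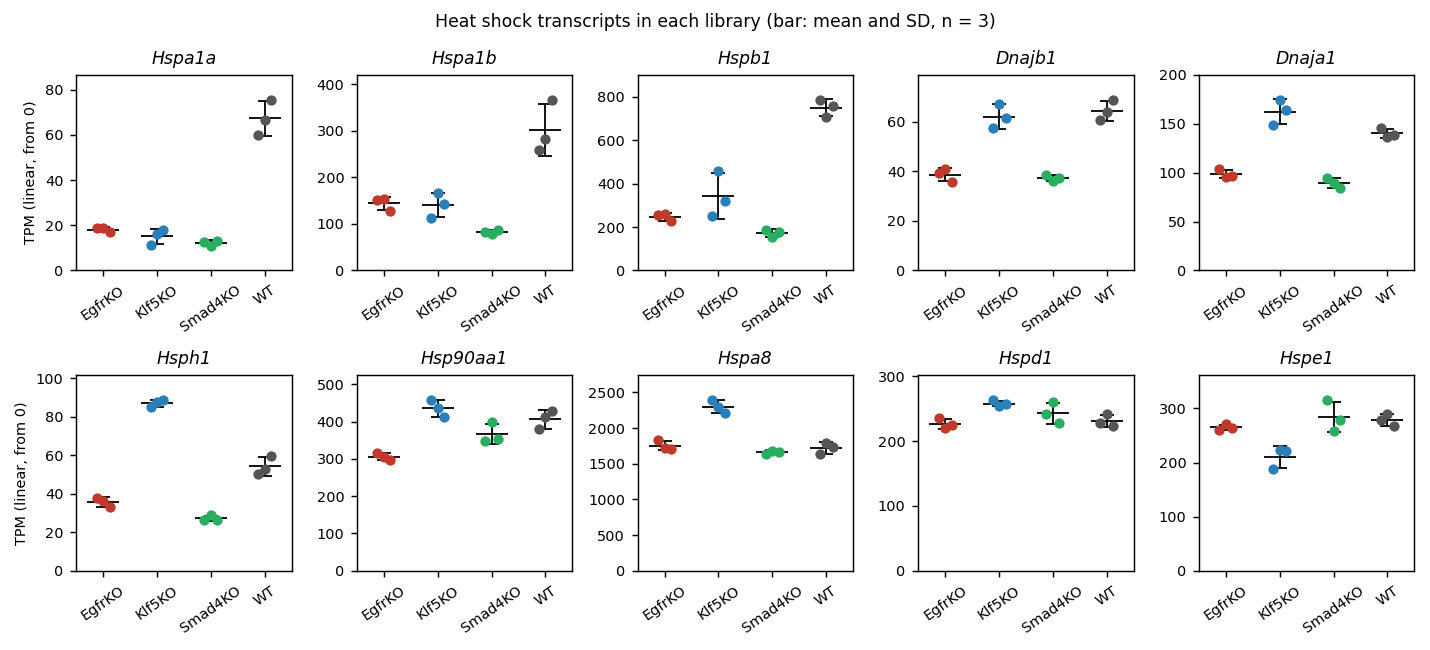
TPM of each heat shock gene (vertical axis, linear from 0) in the 12 libraries, grouped by genotype label, with 1 point a library and bars for the mean and SD (n = 3). Hspa1a, Hspa1b and Hspb1 lie below every WT library in all 9 knockout libraries, while Hsph1 in Klf5KO lies above every WT library at 85.0 to 88.4 TPM.

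Hspa1a and Hspa1b encode the major heat-inducible cytosolic Hsp70, which is nearly absent from many unstressed cells. Hspa1a lies on chromosome 17 (34969359 to 34972156 in GRCm38.p6) and Hspa1b 10120 bp away on the same strand (34956429 to 34959238). Their reference coding sequences are 99.6% identical over 1926 aligned bases, and 67.6% of the 31-base stretches of the Hspa1b transcript also occur in Hspa1a. The split of reads between these copies is therefore uncertain, and their sum is the firmer value.

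Hspa1a was 18.6, 18.7 and 16.8 TPM in EgfrKO, 11.1, 16.2 and 17.8 in Klf5KO, 12.6, 10.9 and 12.97 in Smad4KO, and 59.97, 66.5 and 75.4 in WT. Every knockout library was below every WT library. The log2 fold change was -1.84 ± 0.14 (SE) in EgfrKO, -2.11 ± 0.14 in Klf5KO and -2.37 ± 0.14 in Smad4KO, with adjusted p of 3.1e-06, 5.7e-07 and 1.6e-07.

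Hspa1b was the more abundant copy, at 151, 154 and 128 TPM in EgfrKO, 114, 166 and 144 in Klf5KO, 82.5, 77.8 and 86.7 in Smad4KO, and 260.1, 283 and 366 in WT. Again no knockout library reached the lowest WT library. Its mean was 47.7% of WT in EgfrKO, 46.6% in Klf5KO and 27.2% in Smad4KO, with log2 fold changes of -1.05, -1.10 and -1.85 ± 0.14 (SE) and adjusted p of 0.00016, 4.8e-05 and 1.1e-06.

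Hspa1b took 88.4% to 89.2% of the pair's TPM in EgfrKO, 89.0% to 91.1% in Klf5KO, 86.7% to 87.7% in Smad4KO and 80.9% to 82.9% in WT. The lower Hspa1a share was thus seen in every knockout library, though it rests on the uncertain split. The sum of both copies was 162.5 ± 14.9 TPM (SD, n = 3) in EgfrKO, 156 ± 29.2 in Klf5KO, 94.5 ± 5.51 in Smad4KO and 370.3 ± 63.6 in WT. With the copies summed into 1 feature the log2 fold changes were -1.17, -1.24 and -1.95 ± 0.14 (SE), with adjusted p of 6.3e-05, 1.7e-05 and 6.2e-07.

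Smad4KO had the lowest sum, with a log2 difference of 0.77 for EgfrKO over Smad4KO (adjusted p = 0.0015) and 0.70 for Klf5KO over Smad4KO (0.00095). EgfrKO and Klf5KO did not differ past the threshold (0.07 ± 0.14 SE, adjusted p = 0.70). Hspa1a alone gave 0.53 for EgfrKO over Smad4KO (adjusted p = 0.014), a call lost without Smad4KO replicate 2 (0.053). For Klf5KO over Smad4KO it gave 0.26 (0.13), which passed the threshold without Klf5KO replicate 1 (0.0035). For EgfrKO over Klf5KO it gave 0.27 (0.14), which passed after scaling (0.46, adjusted p = 0.032), after quantile normalization (0.025) or without Klf5KO replicate 3 (0.042).

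The promoters of the genes that fell most are shown because HSF1 acts through letters that can be read in them. The sequences are the 250 bases before the RefSeq start in GRCm38.p6, 5′ to 3′ on the gene's strand, and capitals mark 2 facing units of a heat shock element. Hspa1a is chr17:34972157-34972406 (minus strand), Hspa1b is chr17:34959239-34959488 (minus strand) and Hspb1 is chr5:135887669-135887918 (plus strand).
Hspa1a: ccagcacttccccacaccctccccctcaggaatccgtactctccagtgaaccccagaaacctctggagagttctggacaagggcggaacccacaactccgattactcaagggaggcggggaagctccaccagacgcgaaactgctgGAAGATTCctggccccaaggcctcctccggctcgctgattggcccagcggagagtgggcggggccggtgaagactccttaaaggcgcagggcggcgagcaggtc
Hspa1b: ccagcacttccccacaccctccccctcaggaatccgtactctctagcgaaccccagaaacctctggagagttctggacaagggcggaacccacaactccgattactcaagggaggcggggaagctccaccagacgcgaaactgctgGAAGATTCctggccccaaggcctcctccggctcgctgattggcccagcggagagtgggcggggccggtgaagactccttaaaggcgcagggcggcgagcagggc
Hspb1: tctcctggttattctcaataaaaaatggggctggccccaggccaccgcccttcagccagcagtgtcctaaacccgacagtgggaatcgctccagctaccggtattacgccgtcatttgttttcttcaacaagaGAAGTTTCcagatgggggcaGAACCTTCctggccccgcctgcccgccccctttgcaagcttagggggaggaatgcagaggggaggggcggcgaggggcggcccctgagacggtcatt

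The Hspa1a and Hspa1b promoters are identical at 247 of these 250 bases, and both hold the element at the same distance from the start, 104 to 97 bases before it. Hspb1 has an element at 117 to 110 bases and another at 97 to 90 bases before its start. The letters searched were GAANNTTC and TTCNNGAA for 2 units, each of which reads the same on the other strand. For 3 units they were GAANNTTC continued by NNGAA and TTCNNGAA continued by NNTTC, which are each other's reverse complement and contain the 2-unit letters. RefSeq windows of 300 bases, from 250 before to 50 after the start, were matched for 8 of the 10 genes, and those of Hspa8 and Hsp90aa1 were not analysed here. The 2-unit letters were in a window of 7 of the 8, all but Dnajb1, and in 17% of 27025 genes with a window. The 3-unit letters were in a window of 3 of the 8, Hsph1, Hspd1 and Hspe1, and in 0.662% of those genes. A match describes the letters only, and says nothing of whether HSF1 was bound.

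**Figure D2:**
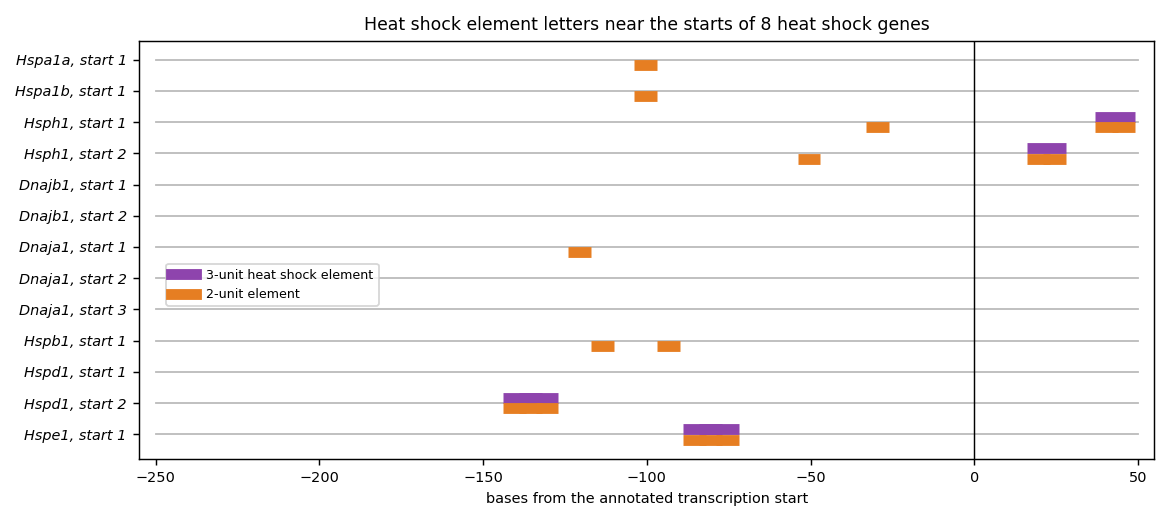
Position of heat shock element letters relative to the annotated transcription start (horizontal axis, in bases, from 250 before to 50 after), 1 line for each RefSeq start of the 8 genes with a window. Hspa1a and Hspa1b share the position of their 2-unit element. Hspe1 and the second start of Hspd1 hold 3-unit letters upstream, and the window of the first Hspd1 start holds none. Hsph1 holds 3-unit letters after its start.

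Hspb1 encodes Hsp27, an ATP-independent small heat shock protein that holds unfolding proteins and binds actin. It was 255, 258 and 227 TPM in EgfrKO, 252, 459 and 319.9 in Klf5KO, 187, 153 and 178 in Smad4KO, and 786, 709 and 758 in WT. The knockout libraries all lay below WT, and Klf5KO replicate 2 stood above the other knockout libraries. Means were 32.9%, 45.8% and 23.1% of WT, with log2 fold changes of -1.60, -1.17 and -2.11 ± 0.17 (SE) and adjusted p of 2.3e-05, 8.7e-05 and 1.2e-06.

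Among knockouts Hspb1 was lowest in Smad4KO, with a log2 difference of 0.95 for Klf5KO over Smad4KO (adjusted p = 0.00038). EgfrKO over Smad4KO was 0.51 (0.034), a call lost after scaling (0.065), with no filter on low values (0.063), without EgfrKO replicate 1 (0.090) or 2 (0.097), without Smad4KO replicate 2 (0.11) or 3 (0.063), and with a replicate block (0.054). EgfrKO against Klf5KO was -0.43 (adjusted p = 0.044) and became -0.20 (0.14) without Klf5KO replicate 2. That call was also lost without any 1 of the EgfrKO libraries (0.067 to 0.13), without Klf5KO replicate 3 (0.068), with no filter on low values (0.078), with a replicate block (0.065), after quantile normalization (0.078) and after scaling (-0.23, 0.32).

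The J proteins bring substrates to Hsp70 and trigger its ATPase. Dnajb1, the stress-inducible Hsp40, was 39.5, 41.0 and 35.8 TPM in EgfrKO, 57.4, 67.3 and 61.6 in Klf5KO, 38.5, 36.2 and 37.4 in Smad4KO, and 60.7, 64.0 and 68.8 in WT. EgfrKO and Smad4KO lay below WT and Klf5KO overlapped it. The log2 fold change was -0.72 ± 0.07 (SE) in EgfrKO and -0.77 ± 0.07 in Smad4KO (adjusted p = 1.8e-05 and 4.8e-06). In Klf5KO it was -0.05 ± 0.07 (adjusted p = 0.53), and after scaling -0.40 (0.0014). EgfrKO and Smad4KO differed by 0.05 ± 0.07 (SE, adjusted p = 0.63), while Klf5KO was higher than Smad4KO by 0.72 (5.0e-06) and EgfrKO lower than Klf5KO by a log2 difference of -0.67 (1.9e-05).

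Dnaja1, a constitutive J protein of the cytosol, was 104, 95.5 and 96.7 TPM in EgfrKO, 149, 174 and 164 in Klf5KO, 94.5, 89.4 and 84.0 in Smad4KO, and 145, 136 and 139 in WT. The Klf5KO libraries lay just above the highest WT library and the other knockouts below the lowest. It fell to 70.4% of WT in EgfrKO and 63.8% in Smad4KO (log2 -0.50 and -0.64 ± 0.06 SE, adjusted p = 0.00011 and 8.2e-06). In Klf5KO it rose by 0.21 ± 0.06 (adjusted p = 0.014). That rise was lost without Klf5KO replicate 2 (0.16, adjusted p = 0.056) and after quantile normalization (0.50), and it was -0.14 after scaling (0.12). Klf5KO was above Smad4KO by 0.85 and EgfrKO below Klf5KO by a difference of -0.71 (adjusted p = 5.0e-07 and 5.1e-06), and EgfrKO and Smad4KO differed by 0.14 ± 0.06 (0.11).

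Hsph1 encodes Hsp105, an Hsp110 protein that acts as a nucleotide exchange factor for Hsp70. It was 37.7, 36.4 and 33.0 TPM in EgfrKO, 85.0, 87.4 and 88.4 in Klf5KO, 26.2, 28.9 and 26.4 in Smad4KO, and 50.2, 52.7 and 59.7 in WT. The 4 genotypes did not overlap, and their order was Smad4KO, EgfrKO, WT and Klf5KO, low to high. Against WT the log2 fold change was -0.59 in EgfrKO, 0.68 in Klf5KO and -0.97 in Smad4KO, each ± 0.07 (SE), with adjusted p of 7.6e-05, 1.1e-05 and 7.9e-07. The rise in Klf5KO was 0.33 after scaling and still past the threshold (adjusted p = 0.0022). Klf5KO exceeded Smad4KO 3.2-fold in mean TPM (log2 difference 1.64, adjusted p = 7.1e-09), EgfrKO exceeded Smad4KO by 0.38 (0.0019), and EgfrKO against Klf5KO was -1.26 (1.9e-07).

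Hsph1 was the member that moved furthest apart between knockouts. It has a 2-unit element 33 to 26 bases before its first RefSeq start, and its 3-unit element lies after the start. Any link between these letters and its levels was not tested. The 3-unit element is shown with 6 bases either side on the gene's minus strand, chr5:149636282-149636306 in GRCm38.p6, capitals marking the 3 units.
Hsph1: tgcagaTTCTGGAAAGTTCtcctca

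**Figure D3:**
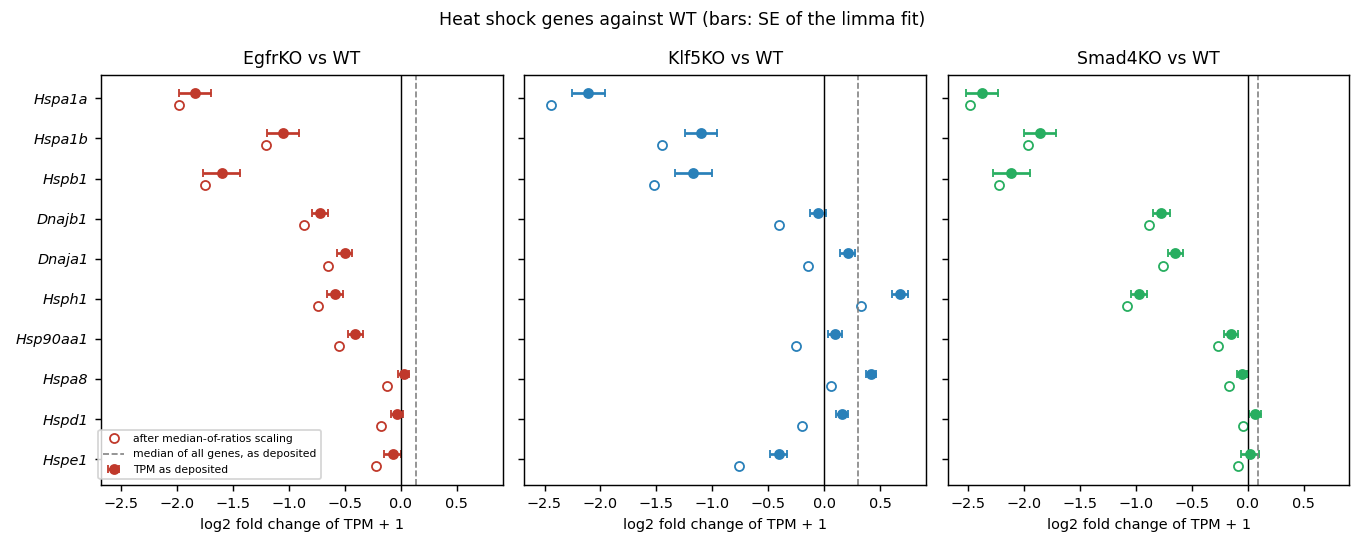
Log2 fold change of TPM + 1 against WT (horizontal axis) for each heat shock gene in EgfrKO, Klf5KO and Smad4KO, filled points with SE bars for deposited TPM, open points after median-of-ratios scaling, and a dashed line at the median of all genes. Hspa1a, Hspa1b and Hspb1 lie left of 0 in each panel on either scale, while Dnaja1, Hsp90aa1 and Hspd1 in Klf5KO, Hspa8 in EgfrKO, and Hspd1 and Hspe1 in Smad4KO change side of 0 with the scaling.

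Hsp90aa1, the inducible cytosolic Hsp90, which keeps kinases and steroid receptors in shape, was 316, 306 and 298 TPM in EgfrKO, 457, 437 and 412 in Klf5KO, 348, 398 and 353 in Smad4KO, and 379, 412 and 429 in WT. EgfrKO lay below every WT library, and the other knockouts overlapped WT. The log2 fold change was -0.41 ± 0.06 (SE) in EgfrKO (adjusted p = 0.00044), 0.10 ± 0.06 in Klf5KO (0.19) and -0.15 ± 0.06 in Smad4KO (0.069). The Smad4KO value passed the threshold without WT replicate 1 (-0.20, 0.030), without Smad4KO replicate 2 (-0.21, 0.016), with the 20 most abundant genes left out (-0.17, 0.038) and after scaling (-0.26, 0.0025). The Klf5KO value turned to -0.26 after scaling (0.0030). EgfrKO was lower than both other knockouts, with log2 differences of -0.50 to Klf5KO and -0.25 to Smad4KO (adjusted p = 5.4e-05 and 0.0096). Klf5KO over Smad4KO was 0.25 (0.0047), and 0.01 after scaling (0.92).

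Hspa8 encodes Hsc70, the constitutive cytosolic Hsp70, and was the most abundant of the 10. It was 1826, 1721 and 1706 TPM in EgfrKO, 2387, 2297 and 2215 in Klf5KO, 1631, 1683 and 1668 in Smad4KO, and 1639, 1794 and 1727 in WT. Klf5KO lay above all other libraries, and EgfrKO and Smad4KO overlapped WT. The log2 fold change was 0.42 ± 0.05 (SE) in Klf5KO (adjusted p = 1.8e-05), of which 0.06 was left after scaling (0.30). In EgfrKO it was 0.03 ± 0.05 (0.68), and -0.12 after scaling (0.066). In Smad4KO it was -0.05 ± 0.05 (0.41), and -0.16 there after scaling (0.018). Klf5KO stayed above the other knockouts after scaling, by 0.23 over Smad4KO (adjusted p = 0.0021), with EgfrKO against Klf5KO at -0.19 (0.0079).

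The 10 genes together took 3031 to 3244 TPM in EgfrKO, 3902 to 4183 in Klf5KO, 2954 to 2997 in Smad4KO and 3886 to 4115 in WT. Hspa8 made up 55.1% to 56.3% of that sum in EgfrKO, 54.9% to 60.2% in Klf5KO, 54.8% to 56.5% in Smad4KO and 42.0% to 44.3% in WT. The totals of Klf5KO and WT overlapped, while the Hspa8 share lay above every WT library in all 9 knockout libraries. Without Hspa8 the other 9 genes summed to 1325 to 1418 TPM in EgfrKO, 1575 to 1885 in Klf5KO, 1286 to 1346 in Smad4KO and 2248 to 2388 in WT.

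A ratio of transcripts within a library does not depend on the scaling between libraries. The pair Hspa1a and Hspa1b stood at 0.085 to 0.10 of Hspa8 in EgfrKO, 0.052 to 0.079 in Klf5KO, 0.053 to 0.060 in Smad4KO and 0.19 to 0.26 in WT. Hspb1 stood at 0.13 to 0.15, 0.11 to 0.20, 0.091 to 0.11 and 0.40 to 0.48 of Hspa8 in the same order. On both ratios WT lay above every knockout library. Hsph1 over Hspa8 was 0.019 to 0.021 in EgfrKO, 0.036 to 0.040 in Klf5KO, 0.016 to 0.017 in Smad4KO and 0.029 to 0.035 in WT, so the Klf5KO libraries were above WT on this ratio too. These ratios were chosen after the values were seen and carry no test.

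**Figure D4:**
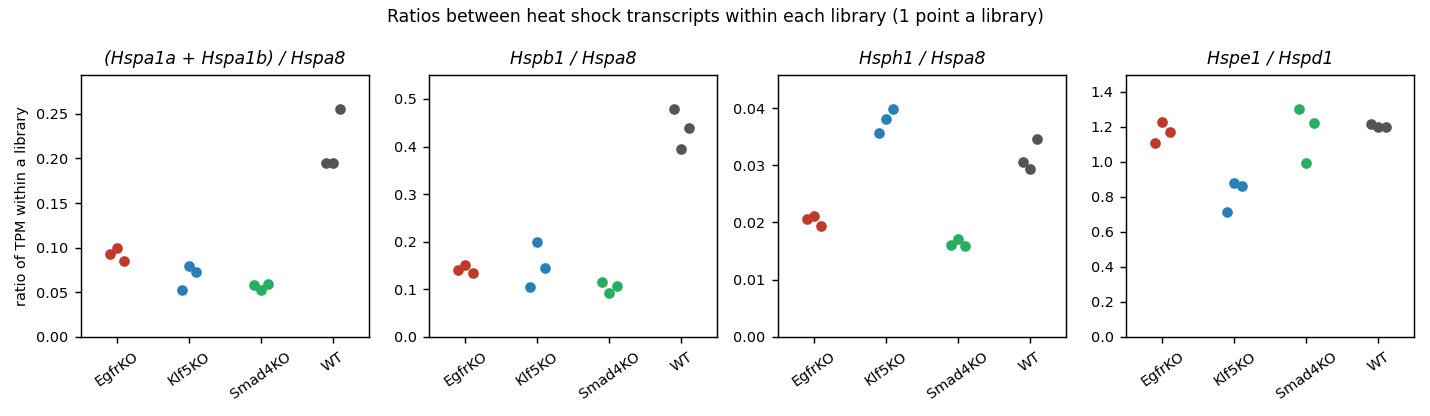
Ratio of TPM between heat shock transcripts within each library (vertical axis, from 0), 1 point for each of the 3 libraries of a genotype label. WT is highest for the first 2 ratios, Klf5KO is highest for Hsph1 over Hspa8 at 0.036 to 0.040 and lowest for Hspe1 over Hspd1 at 0.71 to 0.88.

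Hspd1 (Hsp60) and Hspe1 (Hsp10) encode the ring and the lid of the mitochondrial chaperonin, which folds proteins imported into the matrix. The genes lie head to head on chromosome 1 (55077833 to 55088243 and 55088148 to 55091317) and overlap by 96 bp in RefSeq, and reads there cannot be assigned to either gene without strand, which the labels used here do not state. The 3-unit letters found upstream of Hspe1, 89 to 72 bases before its start, are the same bases found 144 to 127 before the second start of Hspd1. They are shown with 6 bases either side on the plus strand, chr1:55088053-55088082, because the same bases lie in both windows. Capitals mark the bases covered by overlapping matches of the 3-unit letters.
Hspe1: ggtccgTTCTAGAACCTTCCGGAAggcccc

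Hspd1 was 236, 219.8 and 225 TPM in EgfrKO, 263, 254 and 257 in Klf5KO, 241, 260.2 and 228 in Smad4KO, and 229, 242 and 224 in WT. Klf5KO lay above WT and the other knockouts overlapped it. The log2 fold change was -0.03 ± 0.05 (SE) in EgfrKO (adjusted p = 0.67), 0.16 ± 0.05 in Klf5KO (0.021) and 0.07 ± 0.05 in Smad4KO (0.31). The Klf5KO call was lost without WT replicate 1 (0.058), WT replicate 3 (0.076) or Klf5KO replicate 1 (0.058), with the 20 most abundant genes left out (0.075), and after quantile normalization (0.20). After scaling it was -0.20 (0.0027), EgfrKO was -0.18 (0.0066) and Smad4KO was -0.04 (0.43). Of the knockouts EgfrKO was below Klf5KO by a difference of -0.19 (adjusted p = 0.011), which was 0.02 after scaling (0.76). Klf5KO over Smad4KO was 0.09 (0.17), past the threshold without Smad4KO replicate 2 (0.14, adjusted p = 0.035) and -0.15 after scaling (0.0094). EgfrKO against Smad4KO was -0.10 (0.18), and -0.14 after scaling (0.030).

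Hspe1 was 261, 271 and 264 TPM in EgfrKO, 187, 223 and 222 in Klf5KO, 315, 259 and 279 in Smad4KO, and 278, 290.4 and 268 in WT. The Klf5KO libraries lay below all others, while EgfrKO and Smad4KO overlapped WT. The log2 fold change was -0.41 ± 0.08 (SE) in Klf5KO (adjusted p = 0.00077), -0.07 ± 0.08 in EgfrKO (0.48) and 0.02 ± 0.08 in Smad4KO (0.83), which was -0.09 after scaling (0.47). Klf5KO was below Smad4KO by a log2 difference of -0.43 (adjusted p = 0.00051), and EgfrKO over Klf5KO was 0.33 (0.0036).

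Hspe1 over Hspd1 was 1.11 to 1.23 in EgfrKO, 0.71 to 0.88 in Klf5KO, 0.99 to 1.30 in Smad4KO and 1.20 to 1.22 in WT. In the Klf5KO-labelled libraries the ratio lay below that of the other 9 libraries. Ribosomal protein genes, which like Hspe1 have short transcripts, took 18.8% to 19.5% of TPM in EgfrKO, 12.6% to 14.0% in Klf5KO, 17.7% to 19.2% in Smad4KO and 19.7% to 20.1% in WT, and their part in the Hspe1 result was not tested.

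Other chaperone genes were counted from lists, and their counts stand beside shares of 31.3%, 55.2% and 32.2% of all genes that rose in EgfrKO, Klf5KO and Smad4KO and 12%, 11.1% and 17.4% that fell. After scaling these shares were 18.2%, 24.9% and 24.8% that rose and 22.1%, 27.3% and 25.2% that fell. Of the heat shock factors Hsf1, Hsf2 and Hsf4, Hsf2 rose in EgfrKO, Hsf1 and Hsf2 rose in Klf5KO, and none passed the threshold in Smad4KO. After scaling Hsf4 fell in Klf5KO (-0.68, adjusted p = 0.0099), as did Hsbp1, which encodes a protein that binds heat shock factor (-0.52, 0.00075). Hsf1, the main heat shock factor, averaged 32.9 TPM in EgfrKO, 36.3 in Klf5KO, 29.1 in Smad4KO and 30.1 in WT. It rose in Klf5KO (log2 0.26 ± 0.08 SE, adjusted p = 0.014). Leaving out WT replicate 2 (0.057) or Klf5KO replicate 2 (0.056) ended that call. That change was -0.08 after scaling (0.44) and -0.06 after quantile normalization (0.58). Its value was 0.12 in EgfrKO (0.25), -0.02 there after scaling (0.84), and -0.05 in Smad4KO (0.67), and the EgfrKO value passed without EgfrKO replicate 3 (0.040). Hsf2, which can pair with Hsf1, rose in Klf5KO (0.58, adjusted p = 0.00055), and after quantile normalization this was 0.21 (0.082).

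Of 8 other Hsp70, Hsp110 and Hsp90 genes, 2 rose and 1 fell in EgfrKO, 4 rose in Klf5KO, and 2 fell in Smad4KO. After scaling none rose and 4 fell, 1 rose and 2 fell, and none rose and 4 fell. Of all genes 31.3%, 55.2% and 32.2% rose and 12%, 11.1% and 17.4% fell in deposited TPM. After scaling 18.2%, 24.9% and 24.8% of all genes rose and 22.1%, 27.3% and 25.2% fell. Hspa4l, an Hsp110 like Hsph1, fell in EgfrKO to 42.6 TPM and in Smad4KO to 35.9, against 62.9 in WT (log2 -0.55 and -0.79, adjusted p = 0.00085 and 3.4e-05). Hsp90ab1, the constitutive Hsp90 and more abundant than Hspa8, averaged 2202 TPM in EgfrKO, 2820.1 in Klf5KO, 2002 in Smad4KO and 2344 in WT. It rose in Klf5KO (0.27, adjusted p = 0.00035), was -0.09 there after scaling (0.14), and fell in Smad4KO (-0.23, 0.0016). In EgfrKO it was -0.09 (0.13), and it fell there after scaling (-0.24, 0.0019). The Smad4KO call was lost after quantile normalization (-0.18, 0.057). Of 9 other J proteins 1 rose and 2 fell in EgfrKO, 5 rose and 2 fell in Klf5KO, and 3 fell in Smad4KO, and after scaling 1 and 4, 1 and 4, and none and 4. Dnaja4 fell in each, at 1.45, 0.59 and 1.14 TPM against 5.44 in WT (log2 -1.37, -2.003 and -1.58, adjusted p = 9.1e-05, 2.6e-06 and 1.6e-05).

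Of 20 co-chaperones 6 rose and 5 fell in EgfrKO, 11 rose and none fell in Klf5KO, and 4 rose and 4 fell in Smad4KO, and the shares that rose in EgfrKO and Klf5KO were near those of all genes. After scaling the counts up and down were 4 and 9, 6 and 10, and 3 and 9. Bag3, an HSF1-inducible partner of Hsp70 and small heat shock proteins in selective autophagy, averaged 54.2 TPM in EgfrKO, 73.0 in Klf5KO, 44.9 in Smad4KO and 74.1 in WT, with log2 fold changes of -0.44, -0.02 and -0.70 (adjusted p = 0.00037, 0.84 and 5.6e-06). The Klf5KO value passed the threshold after scaling (-0.37, 0.0011) and after quantile normalization (-0.25). St13, which stabilises Hsp70 bound to substrate, averaged 191, 257, 210.1 and 260.03 TPM in the same order and fell in EgfrKO and Smad4KO (adjusted p = 6.5e-05 and 0.00059), and after scaling in Klf5KO too (-0.37, 8.6e-05). Fkbp5, an Hsp90 co-chaperone induced by glucocorticoids, rose in EgfrKO to 85.8 TPM and in Klf5KO to 105, against 42.0 in WT (log2 1.01 and 1.30, adjusted p = 4.7e-07 and 2.8e-08). In Smad4KO it was 44.7 TPM (adjusted p = 0.22).

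Only 2 of 7 other small heat shock genes passed the filter. Hspb6 fell in all 3 knockout labels, at 17.5, 10.6 and 17.1 TPM against 24.3 in WT (log2 -0.46, -1.14 and -0.49, adjusted p = 0.0061, 5.6e-06 and 0.0031). Cryab, alpha-B crystallin, rose in EgfrKO and Klf5KO, at 7.02 and 6.92 TPM against 3.55 in WT (log2 0.82 and 0.81, adjusted p = 0.0036 and 0.0020). The Klf5KO call was lost after quantile normalization (0.063). Of 14 mitochondrial chaperone and protease genes 7 rose and 1 fell in EgfrKO, 5 rose and 1 fell in Klf5KO, and 8 rose and 1 fell in Smad4KO. The share that rose in Klf5KO was below that of all genes. After scaling these were 3 and 3, none and 8, and 6 and 1. Trap1, the mitochondrial Hsp90, rose most in Smad4KO, to 89.8 TPM against 54.5 in WT (log2 0.71, adjusted p = 1.7e-06). Hspa9, the mitochondrial Hsp70, averaged 322, 359, 374 and 350.1 TPM in EgfrKO, Klf5KO, Smad4KO and WT, with adjusted p of 0.16, 0.66 and 0.26. After scaling it fell in EgfrKO (-0.27, 0.0012) and Klf5KO (-0.32, 0.00028). The 8 subunits of the cytosolic chaperonin TRiC went 2 up and 1 down in EgfrKO, 6 up and none down in Klf5KO, and 1 up and 6 down in Smad4KO, and after scaling 1 and 5, none and 5, and 1 and 6. For these lists too, 31.3%, 55.2% and 32.2% of all genes rose and 12%, 11.1% and 17.4% fell in deposited TPM.

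Immediate-early genes, like Hspa1a, are known to respond to dissociation of tissue. Of 14 tested 12 fell in EgfrKO, 14 in Klf5KO and 12 in Smad4KO, and none rose, where 12%, 11.1% and 17.4% of all genes fell. After scaling 14, 14 and 13 fell, where 22.1%, 27.3% and 25.2% of all genes did. In Klf5KO against Smad4KO 7 of the 14 were lower and 1 higher, where 7 of the 10 heat shock genes were higher and 1 lower. Of all genes 45.5% were higher and 18.3% lower there. After scaling 9 of the 14 were lower and 1 higher, and 6 of the 10 were higher and 2 lower. Of all genes 29.7% were then higher and 30.8% lower. The summed level of the 14 immediate-early genes was 2647 to 2818 TPM in EgfrKO, 1723 to 2623 in Klf5KO, 2253 to 2438 in Smad4KO and 3993 to 5032 in WT. In Klf5KO replicates 1, 2 and 3 this sum was 1723, 2623 and 1800 TPM, beside 11.1, 16.2 and 17.8 TPM of Hspa1a and 252, 459 and 319.9 TPM of Hspb1. Replicate 2 was highest in the immediate-early sum and in Hspb1. The sum of Hspa1a and Hspa1b was 125, 182 and 162 TPM in replicates 1, 2 and 3, also highest in replicate 2. Hspa1a alone was highest in replicate 3, which rests on the uncertain split. The immediate-early sum and the sum of Hspa1a and Hspa1b were both highest in replicate 2 of EgfrKO and in replicate 3 of WT and Smad4KO. Hspb1 was highest in replicate 2 of EgfrKO too, but in replicate 1 of WT (786 TPM) and of Smad4KO (187 TPM). Nr4a1, an orphan nuclear receptor induced within minutes of many stimuli, averaged 19.5, 10.3, 14.3 and 31.2 TPM in EgfrKO, Klf5KO, Smad4KO and WT (log2 -0.65, -1.52 and -1.07, adjusted p = 0.00053, 5.8e-07 and 7.0e-06). The part of handling of the tumours in either group of genes was not tested.

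**Figure D5:**
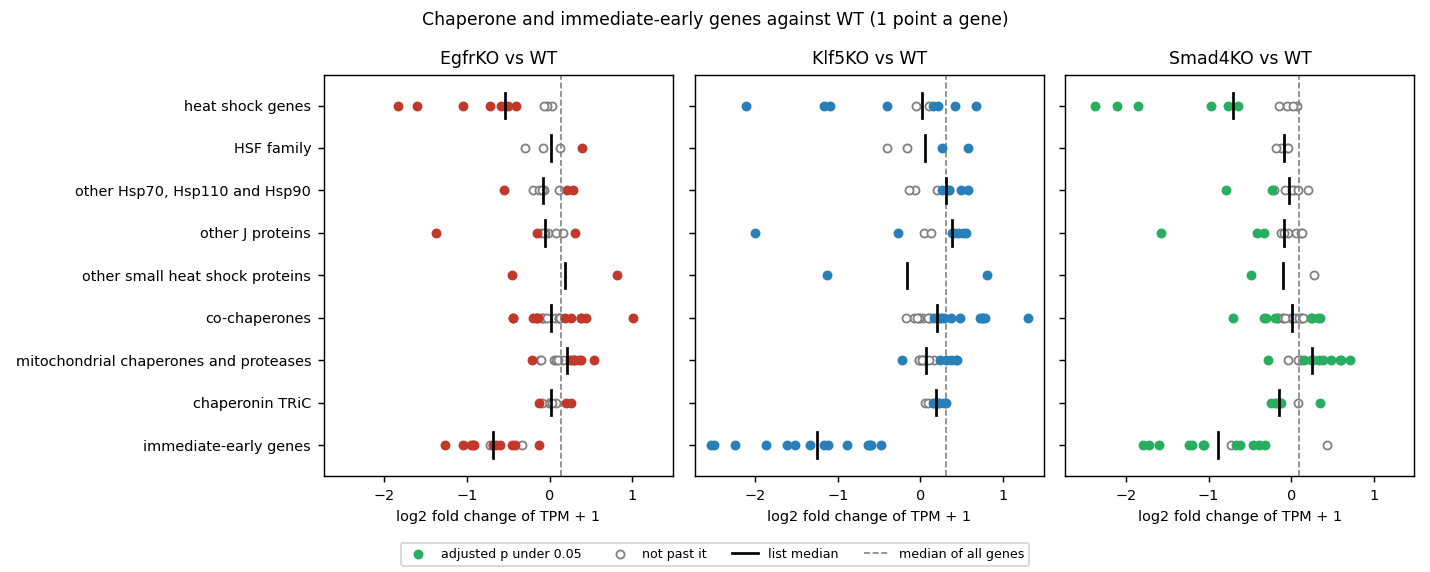
Log2 fold change of TPM + 1 against WT (horizontal axis) of every tested gene in the chaperone and immediate-early lists (rows) for the 3 knockout labels, filled where adjusted p was under 0.05, with a black bar at the list median and a dashed line at the median of all genes. The heat shock genes have medians of -0.55, 0.02 and -0.71, and the immediate-early genes are the list with the lowest median in each panel.

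Between knockouts, in EgfrKO against Klf5KO 7 of the 10 heat shock genes were lower and 1 higher, where 40.5% of all genes were lower and 14.7% higher. After scaling 5 were lower and 2 higher, where 25.6% and 26.4% of all genes were. In EgfrKO against Smad4KO 4 were higher and 1 lower, where 18.7% of all genes were higher and 14.5% lower, and after scaling 3 and 2, where 17.1% and 19.0% of all genes were. In Klf5KO against Smad4KO 7 were higher and 1 lower, where 45.5% and 18.3% of all genes were, and after scaling 6 and 2, where 29.7% and 30.8% of all genes were. Over both directions 8, 5 and 8 of the 10 passed in these 3 comparisons, where 55.2%, 33.2% and 63.8% of all genes did. The groups did not overlap for 7, 7 and 8 of the 10, where 61.2%, 47.9% and 67.2% of all genes did not overlap. Smad4KO thus had the lowest mean level of Hspa1a, Hspa1b, Hspb1, Dnajb1, Dnaja1 and Hsph1, of which Hspa1a against Klf5KO, and Dnajb1 and Dnaja1 against EgfrKO, did not differ past the threshold.

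Across the 12 libraries the genes with levels most like Hspa1a by Pearson's correlation of log2(TPM + 1) were Odaph (r = 0.976), the ferritin light chain Ftl1 (0.974), the vacuolar ATPase subunit Atp6v1g1 (0.973), the initiation factor Eif1 (0.971) and the glycolytic enzyme Tpi1 (0.969). All 5 had their highest mean in WT, for Odaph 13.3 TPM in EgfrKO, 13.6 in Klf5KO and 10.3 in Smad4KO against 41.8 in WT. Those most like Hspd1 were Atp13a3 (0.948), Ttc37 (0.945), Arcn1 (0.942), Cmtm6 (0.941) and E030011O05Rik (0.935), each with its highest mean in Klf5KO. The libraries share their genotype groups and a fixed TPM total, so these values describe a pattern and carry no test.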

How the data were processed

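RNA from 12 libraries of sorted mouse tumour cells was deposited by the authors as 1 table of TPM per gene. The submitters' processing notes name Salmon and mm10. No source used here gives the Salmon version, the annotation or the RNA library method. The deposited TPM keep no read depth, so depth is unknown and no counting interval is given. Columns were matched to samples by title.

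A gene entered the test if 3 or more libraries had 1 TPM or more. The test was limma 3.58.1 (R 4.3.3) on log2(TPM + 1), which understates changes of low genes. The 4 group means were fitted to all libraries, with a trend in the spread, two-sided, at an adjusted p of 0.05. The fit was tested on simulated data. Median-of-ratios factors used genes above 0 in all libraries. The heat shock genes and lists were chosen with earlier results of these data known. Besides them, the text names the targeted genes, Hsf1, Hsf2, Hsp90ab1, Hspa9 and Bag3, a choice among the 2 genes with the smallest adjusted p per list and direction, and the 5 genes most like Hspa1a and Hspd1 with a mean TPM of at least 5. Coordinates and promoters are RefSeq's on GRCm38.p6, the assembly of mm10, and transcripts of Hspa1a and Hspa1b are GENCODE's. Alternatives were another pseudocount, other filters, quantile normalization, scaling, removal of the 20 most abundant genes or of each library, other fits of the spread, a replicate block, and summing the Hspa1 copies.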

Additional observations from a re-analysis of the deposited data

Results flagged for a closer look

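In deposited TPM the knockout labels moved 2 heat shock genes in opposite directions against WT. The difference between the labels was itself past the threshold (limma, adjusted p). For Hsph1 the log2 difference was -1.26 for EgfrKO against Klf5KO (adjusted p = 1.9e-07) and 1.64 for Klf5KO against Smad4KO (7.1e-09). For Dnaja1 it was -0.711 (5.1e-06) and 0.853 (5.0e-07). All 4 differences stayed past the threshold after median-of-ratios scaling. The rise of Dnaja1 in Klf5KO against WT did not, and turned to -0.14 (adjusted p = 0.12), the same side as EgfrKO and Smad4KO. Only Hsph1 kept its opposite directions after scaling, at 0.33 in Klf5KO, -0.74 in EgfrKO and -1.08 in Smad4KO. Groups of 3 libraries are too small for a check of single outlying libraries.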

How the results depend on the processing

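The number of the 10 heat shock genes past the threshold stayed within 1.5 times its value under every alternative run except without Smad4KO replicate 2, where EgfrKO against Smad4KO gave 3 in place of 5. That total does not show direction. In Klf5KO against WT 4 fell and 4 rose in deposited TPM, and after scaling 7 fell and 1 rose. Of the 10 genes, 9, 5 and 8 kept their call under all alternatives in EgfrKO, Klf5KO and Smad4KO against WT. In each comparison between knockouts 7 did. Leaving out 1 library left 7, 7 to 8 and 6 to 7 of the 10 past the threshold for EgfrKO, Klf5KO and Smad4KO against WT. Between knockouts it left 7 to 8, 3 to 5 and 8 to 9 for EgfrKO against Klf5KO, EgfrKO against Smad4KO and Klf5KO against Smad4KO. Over all genes those runs gave 4570 to 5619, 8308 to 8768 and 5730 to 6225 of 13662 against WT. Between knockouts they gave 6673 to 7342, 3469 to 4033 and 7982 to 8492. Counts over all genes also stayed within 1.5 times their value under every alternative run. Before scaling the share of calls that were higher was 72.2%, 83.2% and 64.9% in EgfrKO, Klf5KO and Smad4KO against WT. After scaling it was 45.1%, 47.7% and 49.6%. In Klf5KO against WT scaling turned the sign of Hsp90aa1 (-0.26), Dnaja1 (-0.14), Hspd1 (-0.20), Hsf1 (-0.082), Hsp90ab1 (-0.089), Dnajb6 (-0.31), Trap1 (-0.11), Cct3 (-0.19), Cct2 (-0.042), Cct7 (-0.30), Hspa9 (-0.32) and Smad4 (-0.011). In EgfrKO against Klf5KO it turned Hspd1 (0.018), Dnajc7 (0.13), Dnajb6 (0.0064), Cct2 (0.090) and Cct7 (0.029), and in Klf5KO against Smad4KO Hspd1 (-0.15) and Afg3l2 (-0.18). Quantile normalization turned Hsf1 (-0.057), Dnajb6 (-0.11) and Trap1 (-0.026) in Klf5KO against WT. The labels do not say if replicate numbers pair the libraries. Correlations of deviations between same-numbered libraries ran from -0.149 to 0.116. They cannot show that the libraries were unpaired, since a small shared effect could go unseen. With a replicate block the counts of heat shock genes were 7, 8 and 6 against WT and 7, 4 and 8 between knockouts, and both lost calls were on Hspb1. TPM gives no depth, and the cause of these changes was not tested beyond the scaling itself.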
